A study of Homo sapiens with 6 samples.

Results

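Surface sialomucins of EoL-1 cells were examined as a set of 7 genes, SPN, MUC1, SELPLG, CD164, CD34, PODXL and CD44, out of 35052 genes with estimated reads assigned. Membership was by name: each gene encodes a membrane glycoprotein with a mucin-like outer part. SPN and MUC1 were chosen by their measured difference between the groups in these libraries (the fold change of estimated reads). That difference is therefore given as a description, and no test of it is used as support. EoL-1 is an established human cell line from an eosinophilic leukaemia, and its cell type is labelled eosinophil. CRISPR/Cas9 was used, and the labels' treatment text names the ATF3 edit only. One group lacked JUN alone by label (JUN knockout, here JUN KO, 3 libraries). The other group lacked both ATF3 and JUN by label (ATF3/JUN double knockout, here DKO, 3 libraries). Loss of JUN was therefore shared by all 6 libraries, no unedited cells were analysed here, and the comparison concerned what loss of ATF3 added. Any effect of a further round of editing and cloning cannot be told apart from loss of ATF3. The names of the deposited files give the 3 libraries of a group different clone codes, and same-numbered libraries of both groups share a JUN clone code. The labels do not describe the cultures. By the clone codes, p-values measure the spread between clones of a group, each with a single library. Any technical part of that spread cannot be told apart. Each library held 26146998 to 29567970 estimated reads. One library stood apart in each group by chi-square per gene: JUN KO replicate 1 (41.9 and 67.3 against its replicates, which had 12.8 between them) and DKO replicate 3 (38.8 and 32.6, against 11.7).

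Sialomucins are long, rod-like membrane proteins whose serine and threonine residues carry dense O-linked sugars ending in sialic acid. On leukocytes they form part of the cell coat. They keep cells apart through charge and bulk, while particular sugars on them are bound by selectins and other lectins. Proteases release their outer parts, and several of their tails bind the actin cortex through the linkers ezrin, radixin and moesin.

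The codon content of the members lies close to the choice by name, since mucin-like outer parts carry their sugars on serine and threonine. It is given as a description. In the main coding transcript of each, codons for serine or threonine made up 18.8% (CD44-201) to 28.9% (CD164-202) of the coding sequence. The value was 28.0% for SPN-202, 28.3% for PODXL-202, 26.1% for MUC1-223, 24.9% for CD34-201 and 21.8% for SELPLG-203. Across 19004 genes, each by its longest coding sequence of at least 100 codons, the median was 12.9% and the 95th percentile 18.3%. All 7 members stood above that percentile, CD44-201 by little. The members were taken by their most-read complete coding transcript instead, which is an unlike measure. Proline codons separated the members more: MUC1-223 had 18.0%, SPN-202 9.75% and CD34-201 4.94%, against a median of 5.59% over genes.

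**Figure D1:**
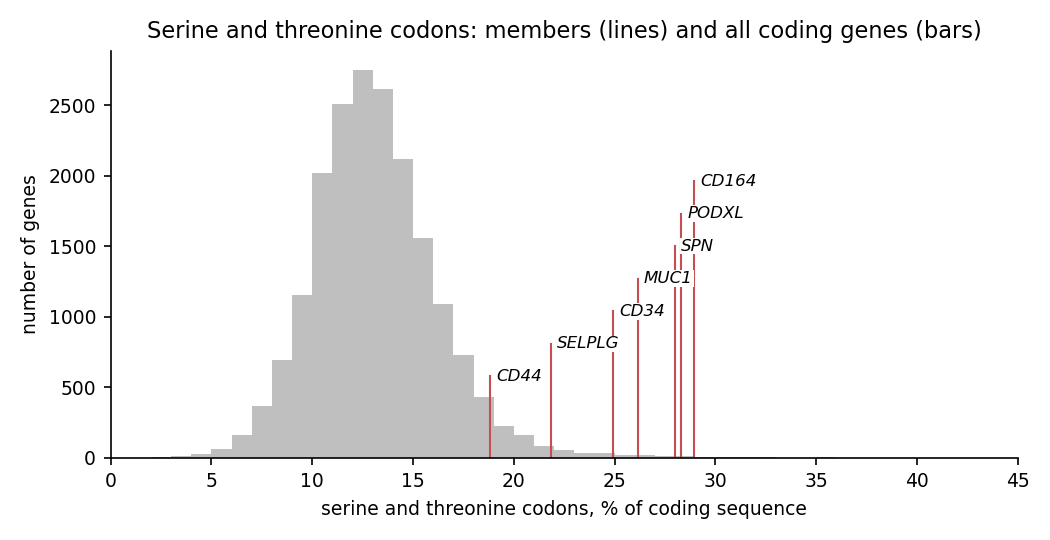
Histogram of the percentage of serine and threonine codons in the longest coding sequence of each of 19004 genes (bars, number of genes per 1% step), with the main coding transcript of each member as a line whose height has no meaning. The 7 members lie between 18.8% and 28.9%, to the right of most genes.

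The MUC1 rod is built from a tandem repeat, which is shown here because the MUC1 transcripts differ mainly in how much of it they keep. In MUC1-223, 19 copies of the following 60-base unit were identical. The first copy starts at base 534 of the transcript, at chr1:155191821-155191880 (GRCh38, minus strand), in a coding exon, and the point at which the unit begins is arbitrary.
MUC1 repeat unit: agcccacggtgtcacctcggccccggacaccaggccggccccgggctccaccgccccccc
MUC1-225 and MUC1-228 held 1 copy each. For CD44, the junction that defines the standard form is shown because most CD44 reads were assigned to transcripts that hold it. It joins the exon ending at position 35190065 of chromosome 11 to the exon starting at 35214852 (plus strand) and skips 9 exons of CD44-208. The capitals mark the first 15 bases after the junction, and both sides are coding.
CD44-201 junction: gaatccctgctaccaGAGACCAAGACACAT
JUN and ATF3 bind AP-1 sites and the related cAMP response element, so the windows of 250 bases upstream of the RefSeq start sites (GRCh38.p14) were searched on both strands for TGACTCA and TGACGTCA. The windows matched MUC1 (2 start sites), CD164 (2), CD34 (1) and CD44 (1). SPN, SELPLG and PODXL had no window and were not searched. Neither word occurred in the windows searched, of which the 2 of MUC1 overlap almost fully. Of all 35116 windows, 4.20% held the first word and 1.65% the second. The MUC1 window lies at chr1:155192910-155193159 on the minus strand. Its first capitals mark the word GGGGCGG, a form of the GC box bound by Sp1 factors, which 29.3% of all windows held on either strand. Its last capitals mark the TATA box word, which 10.7% held.
MUC1 promoter: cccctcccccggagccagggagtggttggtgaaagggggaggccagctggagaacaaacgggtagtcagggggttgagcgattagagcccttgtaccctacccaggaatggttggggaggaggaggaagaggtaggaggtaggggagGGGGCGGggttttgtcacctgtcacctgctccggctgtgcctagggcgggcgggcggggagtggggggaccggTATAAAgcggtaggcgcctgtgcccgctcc

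The members spanned 4 tiers of abundance per length. Levels between genes were compared in TPM, which scales reads for transcript length, after leaving out transcripts under 300 bases. CD44, the receptor for hyaluronan, was highest at 91.3 to 229 TPM over the 6 libraries. SPN, which encodes the leukocyte sialoglycoprotein CD43, followed at 74.0 to 120 TPM, and CD164, the sialomucin also called endolyn, was at 67.6 to 94.1 TPM. The ranges of these 3 neighbours overlapped. SELPLG, which encodes PSGL-1, the main ligand of P-selectin on leukocytes, was at 31.2 to 50.0 TPM and below all 3 in range. MUC1, a mucin best known from epithelia, at 1.27 to 2.92 TPM, and PODXL, podocalyxin, at 1.36 to 2.31 TPM, overlapped with each other and lay far below SELPLG. CD34, the marker of haematopoietic progenitors, was lowest at 0.0874 to 0.227 TPM. CD44 had a higher mean TPM than 94.7% of tested genes, SPN than 91.1% and CD34 than 2.29%. All 7 members passed the filter on low counts.

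The length filter mattered for MUC1 alone. A processed MUC1 transcript of 177 bases turned single reads into large TPM values. In DKO replicate 3 its 4.00 estimated reads made up 85.7% of the MUC1 TPM, which was 20.4 in total. With all transcripts included, MUC1 ranged from 1.46 to 20.4 TPM, while its CPM (reads scaled to a common library total) stayed within 2.89 to 6.39. The groups are therefore compared in CPM below.

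SPN (ENSG00000197471, chromosome 16, 29662979 to 29670876, plus strand) was at 120, 125 and 128 CPM in JUN KO replicates 1, 2 and 3. In the DKO it was at 204, 202 and 163 CPM. The groups did not overlap, the JUN KO libraries had a coefficient of variation of 3.17%, and DKO replicate 3 was the lowest of its group. The means were 125 ± 3.95 and 190 ± 23.0 CPM (SD, n = 3 each), a log2 fold change of 0.61 (SE 0.10). The same-numbered ratios of DKO to JUN KO were 1.69, 1.61 and 1.27. This difference chose the gene. Without DKO replicate 3, the library that stood apart in its group, the log2 fold change was 0.70, and without JUN KO replicate 1 it was 0.58.

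SPN reads were spread over few transcripts. SPN-202 (1935 bases), which carries the complete coding exon and a short 3′ end, held 67.5% of reads over all libraries. Its share was 68.4 ± 5.81% in the JUN KO and 67.4 ± 11.5% in the DKO (SD, n = 3 each; exact permutation p = 1). SPN-203, an incomplete model that ends inside the coding sequence, held 25.4%. SPN-201 reads on for 4963 bases past the end of SPN-202 and held 5.5%, all of it in 2 libraries. It was listed at 440 and 951 estimated reads in DKO replicates 1 and 2 and at 0 in the other 4 libraries. The retained-intron transcript SPN-204, which lies in the same distal stretch, was listed at 244 reads in JUN KO replicate 2 and at 0 elsewhere. SPN-202 and SPN-203 together had 3242, 3222 and 3284 reads in the JUN KO and 4618, 4371 and 4574 in the DKO. These reads are not scaled to the library total, which was 26146998 in DKO replicate 1 and 29567970 in DKO replicate 3. Without the distal transcripts the log2 fold change of SPN was 0.50, an alternative chosen after the values were seen.

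MUC1 (ENSG00000185499, chromosome 1, 155185824 to 155192916, minus strand) had levels of 3.12, 3.35 and 2.89 CPM in the JUN KO. In the DKO it was at 6.39, 5.65 and 6.36 CPM. The lowest DKO library was above the highest JUN KO library. The log2 fold change was 0.97 (SE 0.16), and the same-numbered ratios were 2.05, 1.69 and 2.20. The level rests on few reads: 85, 93 and 75 in the JUN KO and 159, 149 and 180 in the DKO. This difference, too, chose the gene. It was 0.95 without DKO replicate 3 and 0.98 without JUN KO replicate 1.

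MUC1-223, the repeat-rich transcript of 4170 bases, had 38.1, 52.0 and 33.2 estimated reads in the JUN KO and 104, 82.4 and 114 in the DKO. The short-repeat transcripts MUC1-225 and MUC1-228, whose exons differ by 27 bases on one side and 2 on the other, had 40.8, 35.4 and 33.6 reads together in the JUN KO and 53.1, 54.5 and 41.8 in the DKO. Between them, assignment switched: MUC1-225 was listed at 0 in JUN KO replicate 3, and MUC1-228 at 0 in JUN KO replicate 1 and in all 3 DKO libraries. The share of MUC1-223 was 48.3 ± 6.58% and 61.2 ± 5.20% (SD, n = 3 each), a difference of 12.9 percentage points with an exact permutation p of 0.2 (Benjamini-Hochberg 0.7 over 7 members). With 3 against 3 libraries no exact p can fall below 0.1. By TPM the share of MUC1-223 was 10.2% and 18.4% (exact permutation p = 0.7). Here the transcript of 177 bases took 77.9% in each of JUN KO replicates 1 and 2. It took 64.7% and 85.7% in DKO replicates 2 and 3, and 0% in JUN KO replicate 3 and DKO replicate 1.

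**Figure D2:**
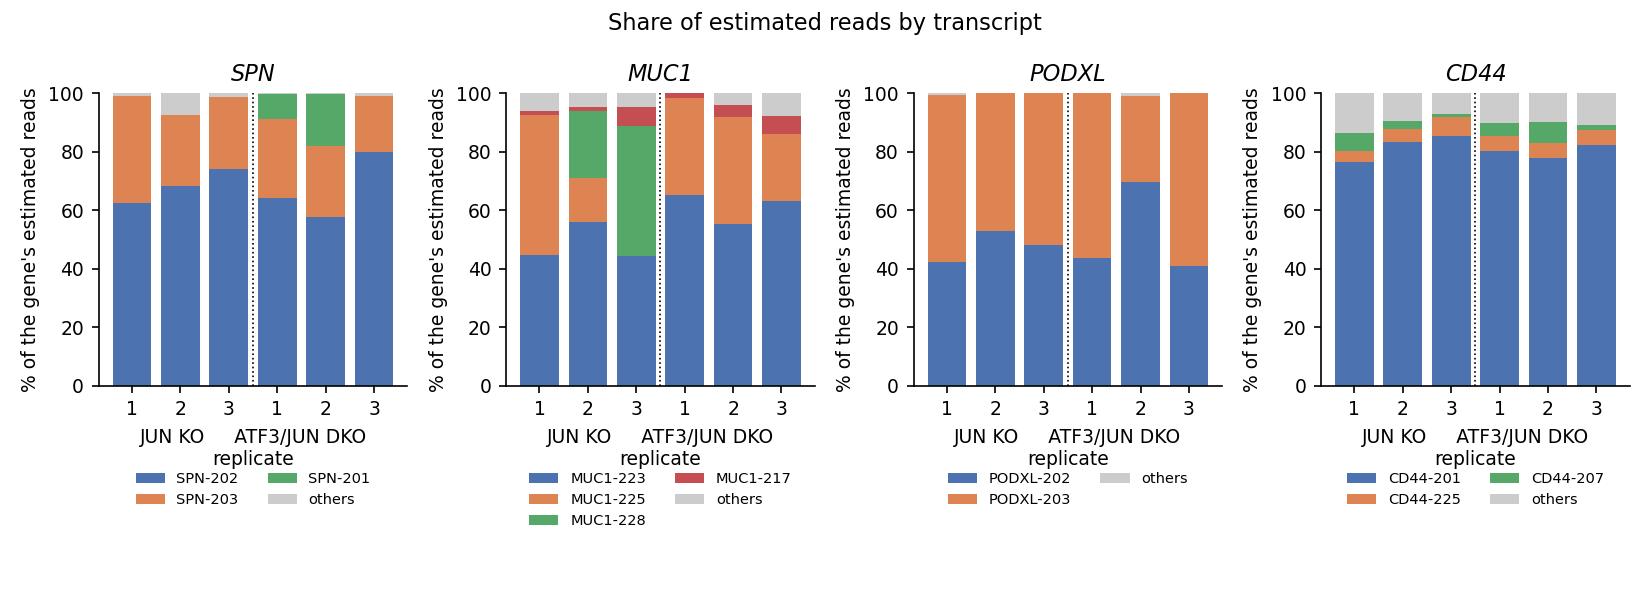
Stacked bars of the percentage of a gene's estimated reads assigned to each transcript (vertical axis) in each library (horizontal axis, replicates 1 to 3 of the JUN KO, then of the DKO), for SPN, MUC1, PODXL and CD44. SPN-201 appears in DKO replicates 1 and 2 only, and MUC1-228 in JUN KO replicates 2 and 3 only.

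SELPLG (ENSG00000110876, chromosome 12, 108622277 to 108633959, minus strand) had levels of 96.3, 92.1 and 71.7 CPM in the JUN KO and of 109, 102 and 89.1 CPM in the DKO. Replicate 3 was lowest in both groups, and the groups overlapped. The log2 fold change was 0.20 (SE 0.13, edgeR adjusted p = 0.927), with the DKO higher in 3 of 3 pairs, as in 18% of all tested genes. SELPLG-203 held 87.8 ± 0.839% and 86.8 ± 1.36% of its reads (SD, n = 3 each; exact permutation p = 0.3), the least variable share of the 7 members.

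CD164 (ENSG00000135535, chromosome 6, 109366514 to 109382812, minus strand) was the steadiest member between libraries, with a highest level 1.28 times the lowest. It was at 236, 204 and 229 CPM in the JUN KO and at 261, 259 and 224 CPM in the DKO. The log2 fold change was 0.15 (SE 0.10; edgeR adjusted p = 0.919), and 2 of 3 pairs were higher. CD164-202 held 74.6 ± 3.77% and 79.1 ± 2.09% of reads (SD, n = 3 each; exact permutation p = 0.2). The retained-intron transcript CD164-205 held 7.3% over all libraries.

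CD44 (ENSG00000026508, chromosome 11, 35138870 to 35232402, plus strand) varied more between replicates than between groups. It was at 481, 312 and 247 CPM in the JUN KO and at 394, 398 and 290 CPM in the DKO. JUN KO replicate 1 was the highest library and JUN KO replicate 3 the lowest, and the pairs went both ways, with ratios of 0.819, 1.28 and 1.17. The log2 fold change was 0.06 (SE 0.25; edgeR adjusted p = 0.988). It was 0.37 without JUN KO replicate 1, the library that stood apart in its group, and 0.19 without DKO replicate 3. It was −0.02 without JUN KO replicate 2, −0.14 without JUN KO replicate 3, −0.01 without DKO replicate 1 and −0.02 without DKO replicate 2. The standard form carried most reads: the 3 transcripts with the junction printed above held 82.8% to 86.6% of reads in each library. The 27 transcripts with at least 20 bases of the skipped variable exons held 4.80% to 8.26%, and CD44-201 held 80.3% over all libraries. By TPM, which weights short transcripts more, CD44-201 held 40.7% in the JUN KO and 39.3% in the DKO, and the retained-intron transcript CD44-225 of 718 bases held 15.7% to 31.7%. An annotated antisense gene, CD44-AS1, overlaps CD44 exons and had no transcript among those used here, as had AL359711.2 at CD164. Whether the counting used strand is not given in the sources used here.

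PODXL (ENSG00000128567, chromosome 7, 131500262 to 131558217, minus strand) was the 1 member with a lower mean in the DKO. It was at 11.2, 16.0 and 11.4 CPM in the JUN KO and at 9.97, 12.7 and 9.47 CPM in the DKO, lower in 3 of 3 pairs. The share of all tested genes lower in every pair was not computed. Replicate 2 was highest in both groups, so the groups overlapped, and the log2 fold change was −0.26 (SE 0.19; edgeR adjusted p = 0.939). Its reads were divided between the coding PODXL-202 (50.6%) and PODXL-203 (49.2%), which is annotated as a target of nonsense-mediated decay. PODXL-202 ranged from 40.9% to 69.9% of reads, and both ends of that range were DKO libraries.

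CD34 (ENSG00000174059, chromosome 1, 207880972 to 207911402, minus strand) was near the limit of detection, with 23, 23 and 40 reads in the JUN KO and 23, 29 and 44 in the DKO. Replicate 3 was highest in both groups, at 1.54 and 1.56 CPM. All 3 pairs were higher in the DKO in CPM, as in 18% of all tested genes. The first pair had 23 reads in both libraries. The log2 fold change was 0.16 (SE 0.35; edgeR adjusted p = 0.98), and it was −0.00093 when JUN KO replicate 2 was left out and −0.08 when DKO replicate 3 was. CD34-201 held 92.2% of its reads. A change at this depth would have been hard to detect.

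**Figure D3:**
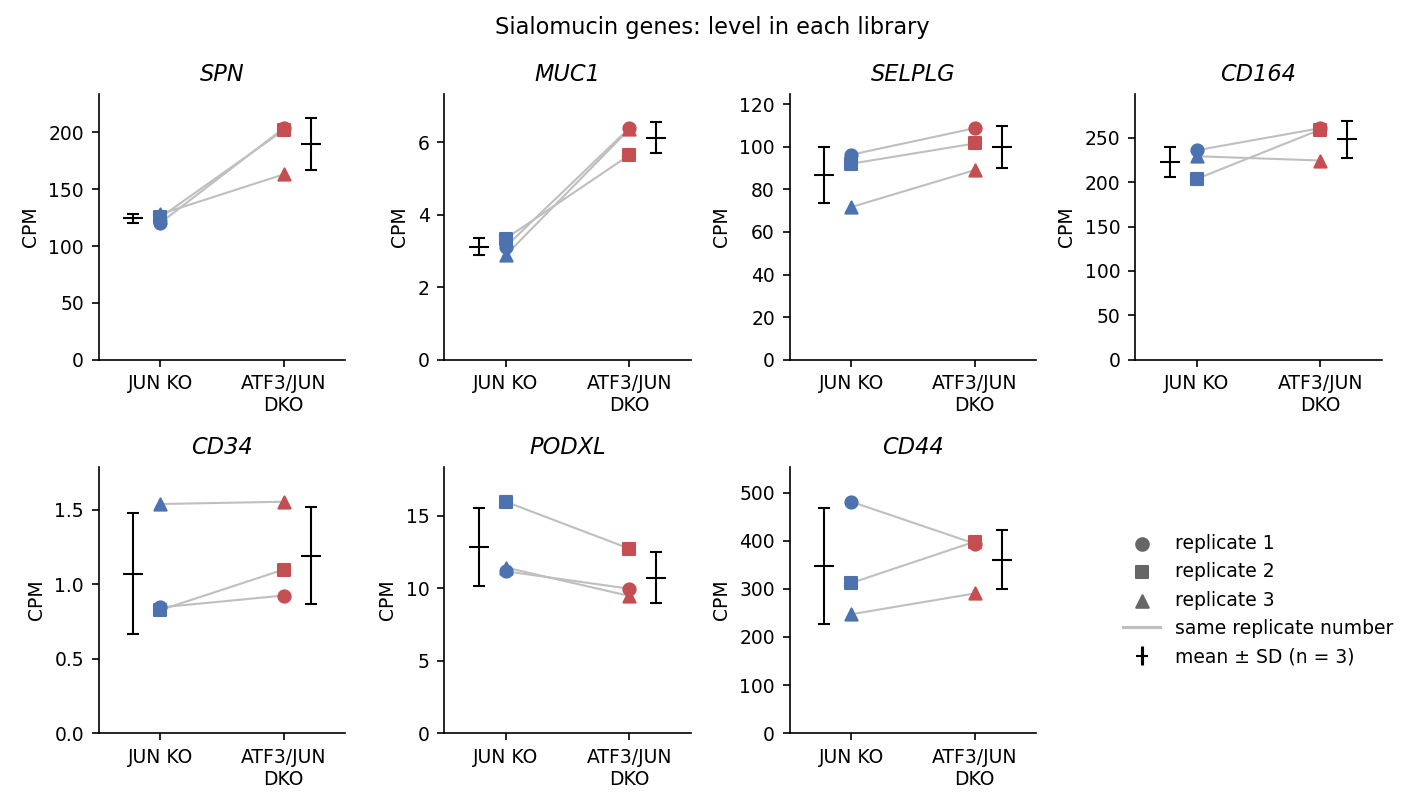
Level of each member in each library in CPM (vertical axes start at 0), with JUN KO in blue and ATF3/JUN DKO in red; symbols give the replicate number, grey lines join same-numbered libraries and black bars are mean ± SD (n = 3). The groups are apart for SPN and MUC1 and overlap for the other 5 members.

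Across all 12954 tested genes, edgeR's quasi-likelihood test called 0 (0%) at an adjusted p under 0.05, so no member passed. It gave 753 genes (5.81%) an unadjusted p under 0.05, and DESeq2 called 71 (0.548%). With the replicate number as a block edgeR called 0, and 1268 (9.79%) had an unadjusted p under 0.05. Groups apart in CPM, in either direction, made up 12.3% of tested genes. Among the 5 members not chosen for their difference, 0 had groups that did not overlap. Their log2 fold changes, from −0.26 to 0.20, all lay between the 5th (−0.37) and 95th (0.39) percentile of tested genes.

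**Figure D4:**
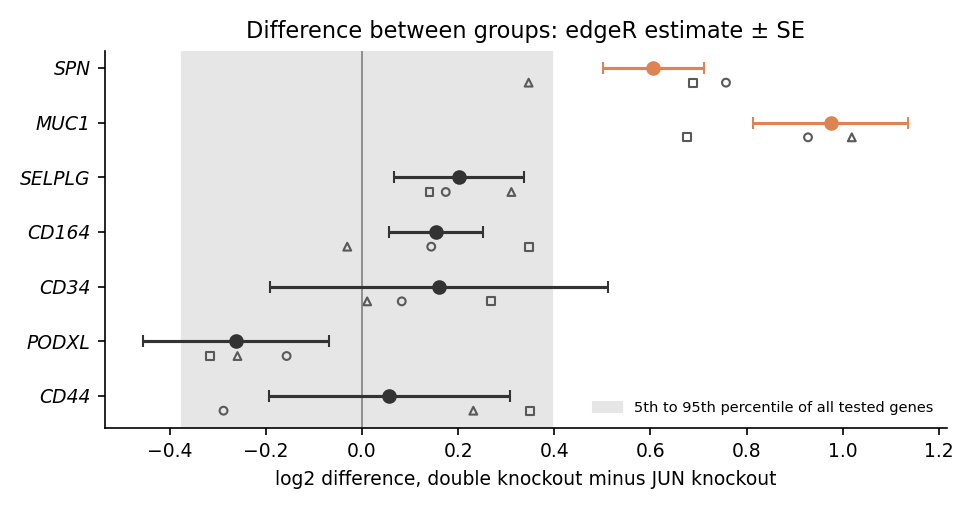
Log2 difference between DKO and JUN KO for each member: the filled points are edgeR estimates with SE, the open symbols below them the 3 same-numbered pairs (circle, square and triangle for replicates 1, 2 and 3, on log2(CPM + 0.5)), and the grey band the 5th to 95th percentile of 12954 genes. The estimates of SPN and MUC1 (orange), which were chosen for this difference, lie to the right of the band, with 1 SPN pair (0.35) inside it, and those of the other 5 members lie within it.

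The SPN locus holds a read-through model that starts in an SPN first exon and continues into QPRT, the next gene on the same strand, which encodes an enzyme of NAD synthesis from quinolinate. This model (AC009086.2, ENSG00000277669) was at 6.06, 5.97 and 6.20 CPM in the JUN KO and at 9.05, 7.39 and 9.83 CPM in the DKO. QPRT itself, 8132 bases beyond SPN, was at 14.5, 16.3 and 18.1 CPM and at 22.9, 27.1 and 31.5 CPM. Both had groups that did not overlap, with log2 fold changes of 0.53 (SE 0.15; edgeR adjusted p = 0.789) and 0.74 (SE 0.15; edgeR adjusted p = 0.599). They were singled out after their values were seen, and reads can be shared among SPN, the read-through model and QPRT. Of 22 tested genes within 250 kb of SPN, 5 had groups apart and higher in the DKO and 0 apart and lower, where 6.31% and 5.94% of all tested genes did. The median log2 fold change of the 22 was 0.07, and that of all tested genes 0.0032. The 5 include QPRT and the read-through model, which overlaps SPN exons. This count is therefore not independent of the difference that chose SPN. The others of the 5 were SEZ6L2, C16orf54 and MAZ, with log2 fold changes of 0.99, 0.28 and 0.08. Around MUC1, 3 of 26 tested genes were apart and higher (THBS3, ENTREP3 and EFNA4) and 2 apart and lower (GBAP1 and SHC1), with a median log2 fold change of 0.06. A read-through model of KRTCAP2 that includes part of a MUC1 exon (ENSG00000273088) was at 13.7 ± 3.11 and 14.2 ± 1.65 CPM (SD, n = 3 each; edgeR adjusted p = 0.986).

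**Figure D5:**
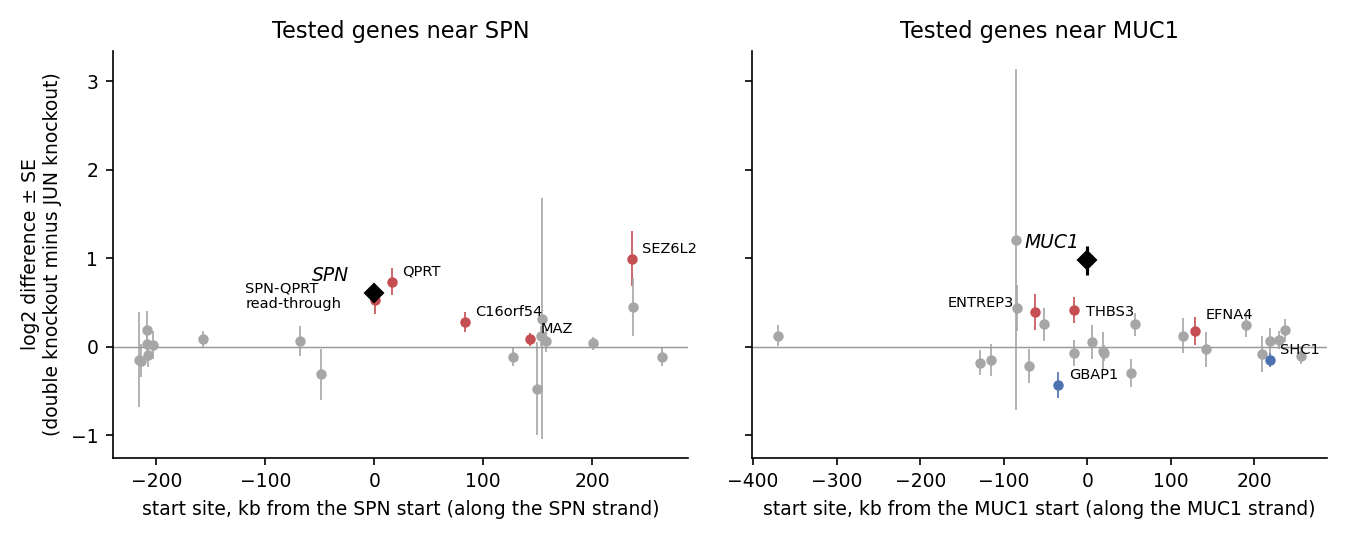
Log2 difference between groups with SE (vertical axis) for the tested genes within 250 kb of SPN (left) and MUC1 (right), by the distance of their start site from that of the member in kb. The members are black diamonds, and genes with groups apart are named and coloured red (higher in the DKO) or blue (lower). QPRT and the read-through model sit next to SPN at a similar height, at 0.74 and 0.53.

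The genes that build, cut, anchor and bind sialomucins were examined in 7 lists of 157 entries, of which 102 genes were tested. edgeR called 0 of the 102 at an adjusted p under 0.05. It gave 6 of them (5.88%) an unadjusted p under 0.05, and DESeq2 called 0. In all, 69 of 102 had a log2 fold change above 0 (67.6%, against 50.7% of all tested genes), with a median of 0.05. Groups did not overlap in 13 (12.7%), close to the 12.3% of all genes, with 11 higher and 2 lower in the DKO.

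Among enzymes that start mucin-type O-glycans, the GALNT family, 7 of 11 tested were above 0 (median 0.05). GALNT1 was the most abundant at 114 ± 10.3 CPM in the JUN KO and 120 ± 12.7 CPM in the DKO (SD, n = 3 each), and GALNT15 had the lowest p, at 0.545 ± 0.13 and 0.327 ± 0.0779 CPM (edgeR adjusted p = 0.887). Among enzymes that extend the glycans, 13 of 17 were above 0 (median 0.16). FUT4, a fucosyltransferase of the Lewis X and sialyl Lewis X structures, was at 92.3, 114 and 127 CPM and at 128, 127 and 137 CPM, with groups barely apart (log2 fold change 0.23, SE 0.12, edgeR adjusted p = 0.895). CHST4, a sulfotransferase, rests on under 2 CPM in every library (0.481 ± 0.0649 and 0.979 ± 0.268 CPM, adjusted p = 0.789 by edgeR). Of genes for sialic acid supply, transfer and removal, 14 of 19 were above 0 with a median of 0.02. ST3GAL4, which adds terminal sialic acid, was at 118 ± 1.27 and 117 ± 8.61 CPM, and NANP, a phosphatase of sialic acid synthesis, at 17.6 ± 2.1 and 20.3 ± 0.607 CPM.

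Of genes for shedding and cleavage inside the membrane, 14 of 18 were above 0 (median 0.12). The protease ADAM10, a sheddase of CD44, was at 154 ± 17.9 and 158 ± 7.79 CPM. CTSG, the granule protease cathepsin G, was at 22.6, 9.97 and 11.4 CPM in the JUN KO and at 50.5, 19.3 and 13.1 CPM in the DKO, where replicate 1 stood far above the others (log2 fold change 0.91, SE 0.54, edgeR adjusted p = 0.919). Of the cortical linkers and tail-binding kinases, 9 of 15 were above 0 (median 0.02). Moesin (MSN), the main linker in leukocytes, was the most abundant gene of the 7 lists at 1187 ± 26.7 and 1202 ± 38.2 CPM, and GSK3B, a kinase, was at 65.5 ± 4.94 and 74.5 ± 2.12 CPM.

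Of counter-receptors and ligands, 7 of 12 tested were above 0 (median 0.01). LGALS1, the lectin galectin-1, was at 373 ± 8.26 and 373 ± 51.9 CPM, and HAS3, a hyaluronan synthase, at 0.48 ± 0.19 and 0.989 ± 0.125 CPM (edgeR adjusted p = 0.789). Of the other mucins and mucin-like glycoproteins, 10 of 34 were tested and 5 of those were above 0 (median −0.01). PTPRC, which encodes CD45, was at 420, 265 and 209 CPM and at 254, 288 and 207 CPM, and as for CD44 JUN KO replicate 1 was the highest library. LAMP2, a heavily glycosylated lysosomal membrane protein, was at 113 ± 1.46 and 135 ± 12.3 CPM (edgeR adjusted p = 0.816). The secreted or epithelial mucin genes MUC2, MUC4, MUC13 and MUC16 were listed at 0 in all 6 libraries.

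Patterns over the 6 libraries were compared by Pearson's r of log2(CPM + 0.5), as a description. SPN and MUC1 gave r = 0.90, as both were chosen for being higher in the DKO. CD44 and SELPLG gave 0.80, and CD34 and CD44 gave −0.73. Of the 11360 genes compared, the 5 most like SPN included MED28, IMPDH2, ANKRD40 and CUL7 (r from 0.985 to 0.989). The 5 most like MUC1 were PDSS2, EEF1A1P6, CCR6, FLNA and RPS7P11 (r from 0.986 to 0.993). EEF1A1P6 and RPS7P11 are pseudogenes that can share reads with their parent genes. With 6 libraries in 2 groups, any gene with groups well apart and higher in the DKO is alike in this sense.

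ATF3 was at 20.2, 13.7 and 8.89 CPM in the JUN KO and 13.1, 10.0 and 7.63 CPM in the DKO, and JUN at 13.2, 27.2 and 24.6 CPM and 13.8, 16.6 and 25.7 CPM. An edit need not lower the mRNA, so these levels check neither. Of 13 eosinophil markers, EPX, PRG3, CLC, IL5RA and GATA1 were listed at 0 in all libraries, and the list summed to 42.3 to 122 CPM in the JUN KO and 70.4 to 115 CPM in the DKO. RNASE2 made up most of it, at means of 68.3 and 69.3 CPM. RNASE3 was at means of 11.4 and 13.0 CPM. Of the granule genes, RNASE2 and RNASE3 thus had reads, while EPX and PRG3 had none. Most of the list was near the floor: 10 of the 13 markers averaged under 1 CPM, and 4 were tested. T cell markers, listed because SPN is also a T cell gene, summed to 0.882 to 1.51 and 0.804 to 1.56 CPM, with 7 of 12 at 0. Epithelial markers, listed because of MUC1, summed to 2.42 to 3.86 and 2.65 to 4.54 CPM, with EPCAM and KRT19 at 0. Megakaryocyte and erythroid markers (0.531 to 1.08 CPM), fibroblast markers (0.303 to 0.845 CPM) and B cell markers (3.53 to 9.57 CPM) were low in every library. Endothelial markers summed to 16.4 to 23.9 CPM, nearly all PECAM1, with CDH5, KDR and CLDN5 at 0. Monocyte markers (164 to 508 and 257 to 582 CPM) and progenitor markers (166 to 286 and 217 to 292 CPM, mostly FLT3) overlapped between groups. Neutrophil markers summed to 78.1 to 84.9 CPM in the JUN KO and 87.4 to 168 CPM in the DKO, with 6 of 10 at 0, ELANE, PRTN3 and LTF among them. CSF3R, the receptor for G-CSF, was at 25.7 ± 0.746 and 39.0 ± 7.26 CPM (SD, n = 3 each), and it was the 1 neutrophil marker with groups apart (edgeR adjusted p = 0.697). All 3 tested neutrophil markers were above 0 in log2 fold change, and DESeq2 called 1 of them, CSF3R. All 4 tested eosinophil markers and all 2 tested progenitor markers, the member CD34 among them, were also above 0, against 50.7% of all tested genes. No tested marker of these 2 lists had groups apart. In each of the T cell, B cell and epithelial lists, 1 of 2 tested markers was above 0. The 1 tested endothelial marker and the 1 tested megakaryocyte and erythroid marker were below 0. Of the 7 tested monocyte markers, 3 were above 0 and 4 below. The part of the neutrophil markers in the SPN and MUC1 differences was not tested. In bulk RNA, fewer cells of a type and less RNA per cell cannot be told apart.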

How the data were processed

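Polyadenylated RNA of 6 EoL-1 samples was sequenced after an Illumina stranded mRNA preparation, per the labels' protocols. Per the submitters' processing notes, FastQC 0.11.9 and Salmon 1.6.0 were used with the build hg38. The deposited files give an estimated count and a TPM value for each of 177456 Ensembl transcripts per library, with its length, per the file headers. Salmon shares out reads that match several transcripts, so values of similar transcripts trade off against each other.

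Transcripts were joined to GENCODE 29 (GRCh38) by identifier without version, which matched 94.1%. The rest carried 3.58% to 3.71% of reads and were left out. All 98 transcripts annotated to the members were present, and 96 of them had the GENCODE 29 length. Each gene's estimated counts were added up over its transcripts, then rounded. The edgeR 4.0.16 quasi-likelihood test (R 4.3.3, filterByExpr, TMM, robust, group as single term, two-sided, Benjamini-Hochberg at 0.05) ran over all genes, with DESeq2 1.42.0 beside it. Positive log2 fold changes mean higher in the DKO, and their SE was derived from the F statistic. CPM was computed after TMM scaling. Transcript shares were compared by exact two-sided permutation (scipy 1.17.1). The procedure was tested on simulated counts.

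The members, lists and tests were chosen with earlier results of these data known. In each list, the most abundant tested gene and that with the lowest p were named, and transcripts with at least 5% of a gene's reads. The mucin, glycan and cell type lists were written from general knowledge. 1 entry each of the sialic acid and neutrophil lists was not analysed here. RefSeq proteins were not used here, so codons of GENCODE 29 coding sequences stood in for the planned protein composition.

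Libraries of a group differed by 11.7 to 67.3 in chi-square per gene, far above sampling noise, so none was counted as a repeat. Same-numbered libraries have a shared clone code in the file names. They were treated as pairs only in the ratios, the pair counts and the blocked edgeR run. The main edgeR test, DESeq2 and the permutations of transcript shares took all libraries as independent. Their p-values therefore leave the shared clone code out of account. Departures of same-numbered libraries from their own group's mean had correlations of 0.387, 0.103 and 0.523. The second pair is weakly borne out: DKO replicate 2 correlated more with JUN KO replicate 1 (0.201), and JUN KO replicate 2 equally with DKO replicate 3 (0.103). Of the genes named for their likeness to SPN, 1 is not reported here.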

Additional observations from a re-analysis of the deposited data

How the results depend on the processing

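edgeR called 0 genes with RLE scaling, a filter of 1 CPM in 3 libraries, a transcript length offset, the replicate number as a block, or any library left out (0 to 0). With no low-count filter it called 1, and DESeq2 called 71. SPN and MUC1 were among the 71, at log2 fold changes of 0.60 and 0.97. Both were chosen by this difference, so that call supports nothing about them. Over all alternatives the log2 fold change ran from 0.48 to 0.70 for SPN and from 0.89 to 1.19 for MUC1. With the pairing as a block, SPN had 0.60 and MUC1 0.97, and the block changed no call among the other 5 members. Leaving out single libraries gave 0.55 to 0.70 for SPN, 0.92 to 1.03 for MUC1, 0.08 to 0.29 for SELPLG, 0.09 to 0.22 for CD164, −0.40 to −0.08 for PODXL, −0.08 to 0.51 for CD34 and −0.14 to 0.37 for CD44, and the last 2 changed sign (CD34 −0.00093 without JUN KO replicate 2 and −0.0781 without DKO replicate 3; CD44 in 4 of 6 cases, given above). The share of SPN-202 differed by −1.04 percentage points of reads but by 3.90 percentage points of TPM (exact permutation p = 0.7). The cause was not tested. Leaving out single libraries moved that share difference between −7.39 and 3.79 points for SPN. MUC1 averaged 7.34 TPM with all transcripts and 2.01 without those under 300 bases, a limit set after the values were seen. No member of the 7 gene lists was called in any alternative run for them, which were DESeq2, no low-count filter, the block and each library left out. At 23 to 44 reads, CD34 is limited by depth.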
